A study of Mus musculus with 9 samples.

Results

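Interferon-stimulated and antigen-processing genes were followed in RNA sequenced from mouse skin. The 35 genes were chosen by symbol from a table of 55382 genes: 4 transcription factors of the pathway, 4 genes of RNA sensing, 21 antiviral effectors, 2 guanylate-binding proteins and 4 genes that prepare peptides for presentation. All 35 were in the table. Of these, 30 reached 1 FPKM (fragments per kilobase of transcript and per fixed number of fragments, a level scaled by transcript length and by library) in at least 3 libraries and were tested, among 14254 such genes in all. Ifi44, Mx1, Mx2, Oas3 and Rsad2 stayed below this filter, and their levels are given without a test in the main fit.

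The study compared 3 groups of 3 libraries each, all of skin from female C57BL/6 mice. In EXO, the bleomycin model was treated with 15 µg of exosomes, small vesicles shed by cells, from bone marrow mesenchymal stem cells (BMSCs). The series description and the study's account of the sequenced skin give 7 days of treatment, and its general methods a longer interval. In BLM, bleomycin, a DNA-damaging drug that scars tissue, had been injected under shaved back skin (100 µL at 1 mg/mL for 28 days), as in EXO, with no exosomes. NORMAL was skin without the model. By the protocol the model mice without exosomes received PBS, while the sample labels call the treatment none in BLM and PBS in NORMAL. Libraries are called EXO1 to EXO3, BLM1 to BLM3 and NORMAL1 to NORMAL3, where 3 stands for the title without a number. No source used here says that each library came from its own mouse, so the p-values tell only of differences among these 9 libraries, part of which may be technical.

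Interferons are secreted proteins that cells release when they sense viral nucleic acid or damage. Type I interferons signal through a receptor to a complex of STAT proteins and IRF9, which binds interferon response elements in promoters and turns on the antiviral genes. Interferon gamma acts through gamma-activated sites, and its targets include IRF1 and the genes that cut, carry and load peptides for MHC class I. In skin, keratinocytes, fibroblasts and resident macrophages can all respond, and raised interferon-stimulated transcripts are well known in the blood and skin of people with systemic sclerosis.

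As a whole the libraries differed widely. Rank correlations across genes within a group ran from 0.65 to 0.902, and each library held 11238 to 13461 genes at 1 FPKM or more. The table holds no counts, and depth could not be settled from the steps between low values, since the estimate moved by over 1.5 times in 4 of 9 libraries with the range that was searched. As a check of the tissue, the summed FPKM of 8 epidermal keratinocyte markers was 6683, 6944 and 11616 in the EXO libraries, 3600, 1030 and 4257 in the BLM libraries and 4241, 1060 and 8529 in the NORMAL libraries. In bulk tissue, fewer cells of a type and less RNA per cell cannot be told apart.

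The promoters of 5 of the genes are shown because they hold motifs known from interferon targets. Each is the 250 bases before the RefSeq start site, written 5′ to 3′ on the strand of the gene, in GRCm38.p6, and capitals mark 2 copies of GAAA set 2 bases of any kind apart, the core of the interferon response element and here called the GAAA repeat, or TTCNNNGAA, the core of the gamma-activated site, each searched on both strands. Isg15 lies on the minus strand at chr4:156200819-156201068, Ifit3 on the plus strand at chr19:34583279-34583528, Oas1a on the minus strand at chr5:120907526-120907775, Bst2 on the minus strand at chr8:71537473-71537722 and Irf1 on the plus strand at chr11:53769764-53770013 (the first of its 2 windows).
Isg15: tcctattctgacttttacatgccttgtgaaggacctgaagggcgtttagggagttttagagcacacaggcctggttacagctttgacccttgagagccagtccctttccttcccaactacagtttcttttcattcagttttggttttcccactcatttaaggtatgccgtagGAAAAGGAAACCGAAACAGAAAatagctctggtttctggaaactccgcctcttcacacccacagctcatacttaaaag
Ifit3: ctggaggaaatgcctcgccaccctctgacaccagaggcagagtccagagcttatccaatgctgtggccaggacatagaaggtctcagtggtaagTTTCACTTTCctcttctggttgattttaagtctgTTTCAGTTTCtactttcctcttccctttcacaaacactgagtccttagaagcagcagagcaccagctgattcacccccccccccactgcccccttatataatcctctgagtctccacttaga
Oas1a: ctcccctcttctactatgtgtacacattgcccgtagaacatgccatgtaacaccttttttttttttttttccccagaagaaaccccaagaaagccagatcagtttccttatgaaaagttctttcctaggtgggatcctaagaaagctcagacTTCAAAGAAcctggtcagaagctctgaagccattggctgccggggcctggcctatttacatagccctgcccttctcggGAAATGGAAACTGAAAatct
Bst2: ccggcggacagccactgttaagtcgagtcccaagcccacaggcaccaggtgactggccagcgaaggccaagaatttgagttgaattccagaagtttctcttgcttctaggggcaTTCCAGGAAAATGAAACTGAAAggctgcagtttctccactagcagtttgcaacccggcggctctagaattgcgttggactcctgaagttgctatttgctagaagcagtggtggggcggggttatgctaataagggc
Irf1: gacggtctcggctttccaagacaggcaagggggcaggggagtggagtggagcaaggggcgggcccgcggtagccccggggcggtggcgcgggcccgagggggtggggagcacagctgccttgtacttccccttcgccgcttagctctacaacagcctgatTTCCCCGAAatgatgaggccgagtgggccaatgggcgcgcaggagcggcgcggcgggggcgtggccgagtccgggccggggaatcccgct

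The Isg15 window held 3 overlapping GAAA repeats between 78 and 57 bases before the start. Ifit3 held 2 separate matches, Oas1a and Bst2 held 2 overlapping ones each together with 1 match to TTCNNNGAA, which in Bst2 overlaps the first GAAA repeat, and Irf1 held TTCNNNGAA alone. Promoter windows were found for 27 of the 35 genes. The GAAA repeat stood in 10 of these 27, against 3.46% of all 27025 symbols with a window (2.98% of 32851 windows), and TTCNNNGAA in 6 of 27, against 8.13% of symbols (7.02% of windows). Of the genes highest in the libraries numbered 2, a group described after the sequences, 7 of 15 with a window held the GAAA repeat, and of the others 3 of 12. A match is a string of letters and says nothing about binding in these samples.

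**Figure D1:**
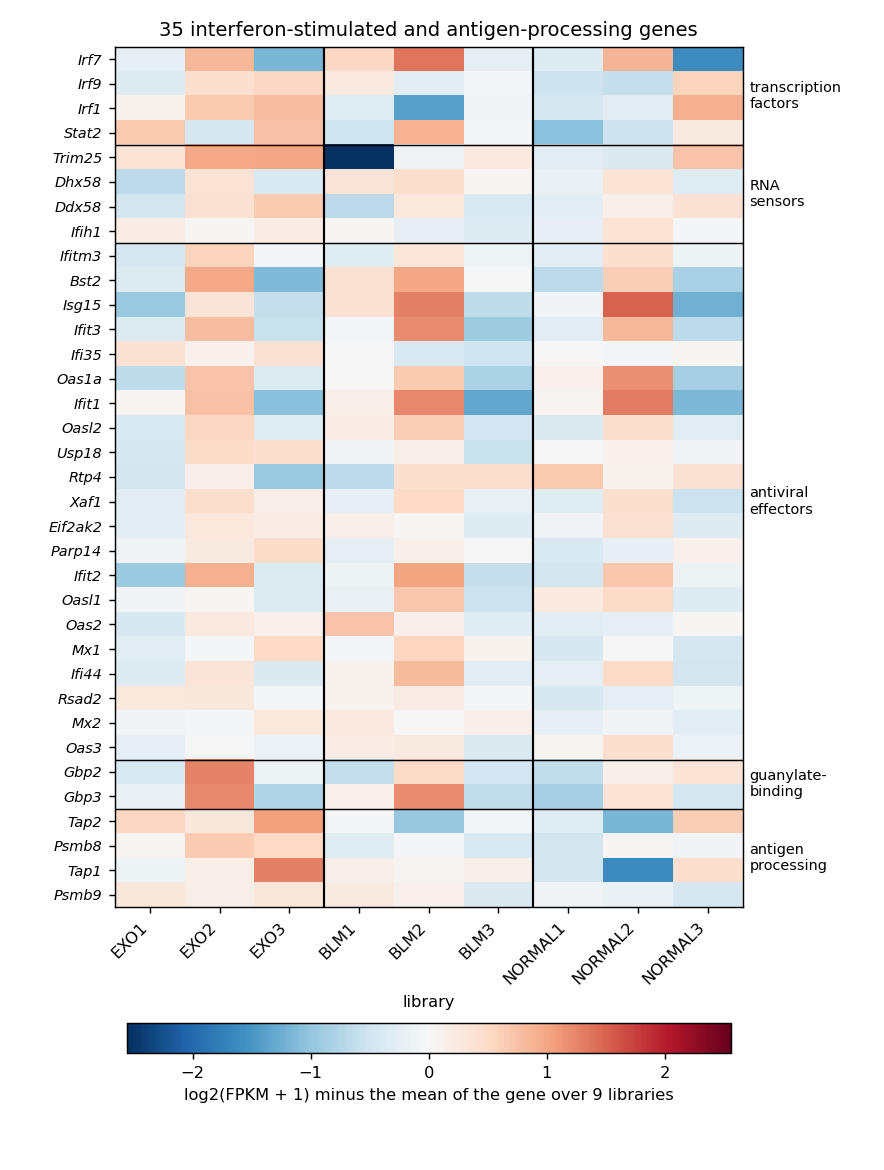
Each row is 1 of the 35 genes, grouped by role and ordered by mean level, and each column is 1 library. Colour gives log2(FPKM + 1) minus the mean of that gene over the 9 libraries (red above, blue below). EXO2, BLM2 and NORMAL2 held the highest value of their own group for 17 genes, mostly antiviral effectors.

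The levels spanned a wide range. Ifitm3, a membrane protein that blocks virus entry, was the most abundant of the 35 at a mean of 240 FPKM over the 9 libraries, and Oas3, an enzyme that makes the activator of RNase L, the least at 0.504 FPKM. Bst2, which tethers budding virus at the membrane, averaged 42.1 FPKM, Isg15, a ubiquitin-like modifier, 32.8 FPKM and Ifit3, which binds with its relatives to foreign RNA, 26.7 FPKM.

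A pattern ran by library number across all 3 groups. Of the 35 genes, 17 were highest in the library numbered 2 in EXO, in BLM and in NORMAL alike (15 of the 30 tested), where 5.18% of all genes tested were. These were 13 antiviral effectors (Isg15, Usp18, Ifit1, Ifit2, Ifit3, Ifi44, Oas1a, Oas3, Oasl1, Oasl2, Bst2, Ifitm3 and Xaf1) with Irf7, Dhx58, Gbp3 and Psmb8. No gene of the 35 was highest in the library numbered 1 in all 3 groups (background 5.96%), and 3 were so in the library numbered 3, namely Trim25, Irf1 and Tap1 (background 32.4%). In 12 of the 35 (11 of the 30 tested), EXO2, BLM2 and NORMAL2 all lay above the other 6 libraries, against 3.64% of genes tested. This pattern was noticed in the data, so it is described here and not tested.

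Isg15 had 13.25, 33.56 and 16.99 FPKM in EXO1 to EXO3, 35.28, 66.1 and 16.67 FPKM in BLM1 to BLM3, and 25.11, 77.47 and 10.77 FPKM in NORMAL1 to NORMAL3. The second library of each group stood highest, and the groups overlapped. Ifit3 had 18.07, 41 and 15.53 FPKM in EXO, 22.72, 55.26 and 12.06 FPKM in BLM, and 18.98, 42.23 and 14.28 FPKM in NORMAL, here with all 3 libraries numbered 2 above the other 6. Bst2 had 28.59, 72.89 and 16.23 FPKM in EXO, 48.93, 74.73 and 37.39 FPKM in BLM, and 22.69, 57.37 and 20.39 FPKM in NORMAL. These genes sit on different chromosomes (4, 19 and 8), and their promoters are among those printed above.

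Ifitm3 varied less, with 172.27, 348.75 and 227.73 FPKM in EXO, 187.64, 291.56 and 217.57 FPKM in BLM, and 190.44, 313.37 and 215.13 FPKM in NORMAL. Its groups overlapped, with the widest span in EXO. Oas1a, of the enzyme family that senses double-stranded RNA, had 4.26, 12.54 and 5.41 FPKM in EXO, 7.18, 12.07 and 3.7 FPKM in BLM, and 7.88, 17.47 and 3.57 FPKM in NORMAL. Oas1a has close copies next to it, and so has Ifit3, so fragments may have been split between them. Irf7, the factor that drives interferon alpha genes, had 9.9, 22.36 and 4.72 FPKM in EXO, 17.57, 32.61 and 9.83 FPKM in BLM, and 9.33, 22.57 and 3.25 FPKM in NORMAL.

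Over the 17 genes, the level in the library numbered 2 divided by the mean of the other 2 libraries of its group was 1.28 to 4.92 in EXO (median 2.44), 1.24 to 3.82 in BLM (median 2.22) and 1.13 to 5.17 in NORMAL (median 2.41). Over all genes tested the same ratio had medians of 0.842 in EXO, 0.491 in BLM and 0.634 in NORMAL, so the typical gene was lower in the libraries where these 17 were higher. The summed FPKM of all genes was also largest in the library numbered 2 of each group, at 631060 in EXO2, 849164 in BLM2 and 603295 in NORMAL2. With each library rescaled to the same total, 10 of the 35 kept the pattern (Bst2, Gbp3, Ifi44, Ifit1, Ifit2, Ifit3, Irf7, Isg15, Oas1a and Oasl2), where 3.03% of genes tested did. With median-ratio scaling all 17 kept it, with 20 of 35 in all, against 11.5% of genes tested. Quantile normalization was applied to the tested genes alone, so Ifi44 and Oas3, below the filter, could not lose the pattern there. The 15 tested genes of the 17 kept it, against 10.5% of genes tested. The counts out of 35 include genes below the filter, and the shares do not. Mitochondrial, ribosomal and muscle transcripts took 36.12% of the total in EXO2, 51.92% in BLM2 and 36.33% in NORMAL2, more than in the other libraries of each group (21.51% to 39.11%). With totals taken without these transcripts 12 of the 35 kept the pattern, against 4.26% of genes tested.

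Other lists showed where the pattern held. Of 35 further interferon-stimulated genes that were tested, 19 were highest in the libraries numbered 2. Ifi27l2a, the most abundant of them, had 111.49, 610.49 and 75.68 FPKM in EXO, 231.6, 582.44 and 165.97 FPKM in BLM, and 238.23, 708.3 and 89.64 FPKM in NORMAL. Highest there were 0 of 15 genes of MHC class I and peptide loading, 0 of 11 interferon receptors, kinases and their SOCS inhibitors and 0 of 18 constitutive proteasome genes. Of all genes tested 5.18% were, so counts of 0 in lists this short are near that share.

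Many macrophage markers were also high in these libraries. Of 12 markers, 7 were highest in the libraries numbered 2, against 5.18% of all genes tested. The summed FPKM of the 12 was 245, 856 and 89.9 in the EXO libraries, 135, 635 and 229 in the BLM libraries and 281, 580 and 428 in the NORMAL libraries. C1qa, a complement protein made by macrophages, had 142.53 FPKM in EXO2, 131.21 FPKM in BLM2 and 156.87 FPKM in NORMAL2, against 15.76 to 69.94 FPKM in the other libraries, while no marker of the 12 was at 0 in all libraries. Lyz2, the most abundant of the 12, was highest in EXO2 and BLM2 (445.76 and 271.35 FPKM). In NORMAL2 it had 187.98 FPKM, below the 227.81 FPKM of NORMAL3. Csf1r, Adgre1 and Cd163 were likewise highest in NORMAL3 within NORMAL, and Cd14 was lowest in BLM2 within BLM. Of 5 tested markers of Langerhans and dendritic cells, 0 followed the pattern in all 3 groups, while the summed FPKM of 8 such markers was 230, 497 and 77.8 in the EXO libraries, 120, 359 and 192 in the BLM libraries and 141, 214 and 261 in the NORMAL libraries, highest in EXO2 and BLM2 but not in NORMAL2. The part of these cells in the levels of the interferon-stimulated genes was not tested.

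**Figure D2:**
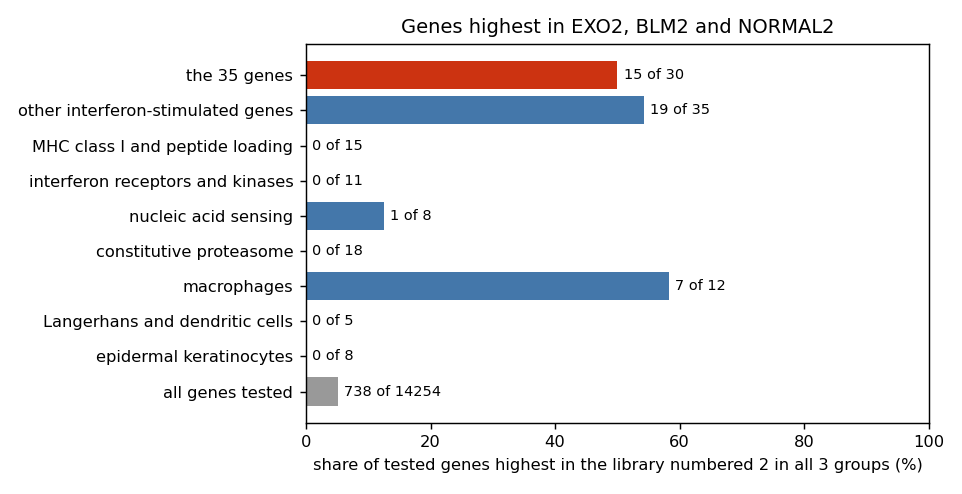
Bars give the share of tested genes that were highest in EXO2, BLM2 and NORMAL2, each within its own group, in percent, with counts beside the bars. The bar of the 35 genes counts the 30 that were tested, and it, the further interferon-stimulated genes and the macrophage markers reach 50% to 58.3%, against 5.18% of all genes tested.

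The ligands themselves were near the floor. Of 11 interferon genes in the table (alpha, beta, gamma, epsilon, kappa, lambda and zeta), 8 were listed at 0 in all 9 libraries, and the sum over all 11 was 0.24 FPKM at most, in BLM2. Ifng, which encodes interferon gamma, was listed at 0.08, 0 and 0 FPKM in EXO, 0.07, 0.24 and 0 FPKM in BLM, and 0 FPKM in all NORMAL libraries. Such low values cannot be ranked.

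**Figure D3:**
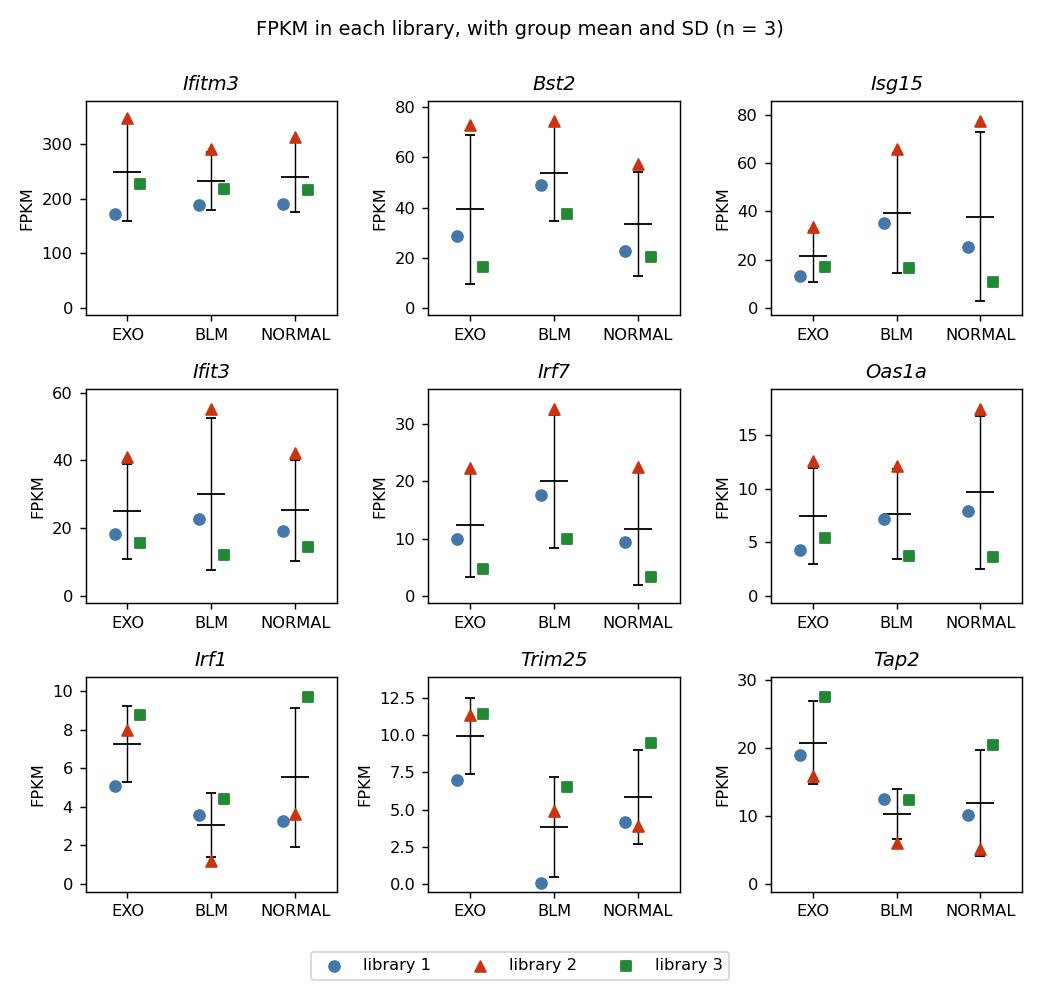
Points are FPKM in single libraries (circle, triangle and square for the libraries numbered 1, 2 and 3), with EXO, BLM and NORMAL from left to right, and bars give the group mean and SD (n = 3). The triangle is on top in every group for Ifitm3, Bst2, Isg15, Ifit3, Irf7 and Oas1a, and the square for Irf1 and Trim25.

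EXO was set against BLM to see what the vesicle treatment changed in the model. None of the 30 genes passed (limma, adjusted p below 0.05), where 0.014% of all genes tested did. At an unadjusted p below 0.05 there were 2, Trim25 and Irf1, against 6.84% of all genes tested. These 2 were also the genes past the rule of the study, which asks for over 1 on the log2 scale and a p below 0.05, taken here as unadjusted. Of all genes tested, 3.03% met it in the higher and 2.27% in the lower direction. The median log2 change of the 30 was 0.10, against 0.22 for all genes tested, and 17 of 30 were higher in EXO, where 68.8% of genes tested were. The median of all genes moved with the scaling, to 0.46 with totals made equal and 0.01 with median-ratio scaling, so a small change in 1 direction depends on it. The count of members higher in EXO was 24 of 31 with totals made equal, 13 of 30 with quantile normalization and 10 of 31 with median-ratio scaling.

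Trim25, a ubiquitin ligase that helps the RNA sensor RIG-I, had 6.98, 11.4 and 11.47 FPKM in EXO, 0.07, 4.92 and 6.51 FPKM in BLM, and 4.18, 3.9 and 9.49 FPKM in NORMAL. BLM1 stood far below the rest, and the highest BLM library lay just under the lowest EXO library. The log2 change of EXO over BLM was 1.57 (SE 0.67, n = 3 each, limma adjusted p = 0.706). Without BLM1 it was 0.69 (limma adjusted p = 0.927). Trim25 (ENSMUSG00000000275) lies on chromosome 11 from 88999376 to 89020293 in GRCm38.

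Irf1, a transcription factor that drives antigen-presentation genes, had 5.05, 7.97 and 8.77 FPKM in EXO, 3.55, 1.17 and 4.41 FPKM in BLM, and 3.28, 3.61 and 9.7 FPKM in NORMAL. All EXO libraries lay above all BLM libraries, but NORMAL3 was above all EXO libraries. The log2 change of EXO over BLM was 1.10 (SE 0.49, n = 3 each, limma adjusted p = 0.717). It was 0.71 without BLM2 and 0.63 without all libraries numbered 2. Irf1 (ENSMUSG00000018899) lies on chromosome 11 from 53770014 to 53778374.

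Of the 30 tested genes, 5 had EXO libraries all above BLM libraries (Trim25, Irf1, Ifi35, Psmb8 and Tap2) and 0 had them all below, against 11.4% and 2.66% of genes tested. Ifi35, which binds other interferon-induced proteins, had 25.04, 20.51 and 24.8 FPKM in EXO, 19.03, 14.36 and 13.06 FPKM in BLM, and 19.3, 18.68 and 19.83 FPKM in NORMAL. Its EXO libraries lay above those of both other groups, with a log2 change of 0.58 (SE 0.33) over BLM and 0.27 (SE 0.33) over NORMAL. Over 5 scalings the value over NORMAL ran from -0.01 to 0.30, so its sign depended on the scaling.

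The antiviral effectors, of which Ifi35 is one, went both ways, and their balance turned with the scaling. Of 16 tested, 6 were higher and 10 lower in EXO than in BLM (median -0.11), while 12 of 17 were higher with each library rescaled to the same total (median 0.17). Isg15 had a log2 change of -0.76 (SE 0.70, limma adjusted p = 0.859) and Bst2 one of -0.65 (SE 0.59, limma adjusted p = 0.859), each with overlapping groups. Gbp2, a guanylate-binding protein that attacks vacuoles of microbes, had 5.58, 19.96 and 6.95 FPKM in EXO, 4.68, 11.16 and 5.18 FPKM in BLM, and 4.64, 8.48 and 10.05 FPKM in NORMAL, with EXO2 highest and the groups overlapping. Its relative Gbp3 ranged from 1.83 to 10.93 FPKM, and the family has close copies among which fragments may have been split.

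The 4 antigen-processing genes lie next to each other in the MHC region of chromosome 17, from 34181987 to 34216321 in GRCm38. All 4 were higher in EXO than in BLM (median log2 change 0.49) and than in NORMAL (median 0.74), and none passed. Under median-ratio scaling 3 of 4 were higher than in BLM (median 0.22), and all 4 than in NORMAL (median 0.48). In the main fit all genes tested had medians of 0.22 over BLM and 0.17 over NORMAL, with 68.8% and 67% of them higher in EXO. Under median-ratio scaling the medians of all genes were 0.01 and -0.03.

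Tap2, a subunit of the pump that carries peptides into the endoplasmic reticulum, had 18.95, 15.78 and 27.5 FPKM in EXO, 12.45, 6 and 12.32 FPKM in BLM, and 10.12, 5.13 and 20.36 FPKM in NORMAL. EXO did not overlap BLM, with a log2 change of 0.98 (SE 0.50, limma adjusted p = 0.771), but it overlapped NORMAL through NORMAL3 (0.90, SE 0.50, limma adjusted p = 0.997). Tap1, its partner, had 5.32, 6.84 and 15.9 FPKM in EXO, 6.59, 6.34 and 6.69 FPKM in BLM, and 4.05, 1.25 and 8.33 FPKM in NORMAL. EXO3 stood apart, and the log2 change over NORMAL was 0.99 (SE 0.54, limma adjusted p = 0.997). It was 0.57 without EXO3 and 0.46 without NORMAL2, and that of Tap2 over NORMAL was 0.46 without NORMAL2 and 1.36 without NORMAL3.

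Psmb8, a catalytic subunit that replaces Psmb5 in the immunoproteasome, had 13.96, 21.32 and 19.41 FPKM in EXO, 10.52, 12.87 and 9.89 FPKM in BLM, and 9.23, 13.85 and 12.52 FPKM in NORMAL. Its EXO libraries all lay above the libraries of both other groups, with EXO1 only just above NORMAL2. Psmb9, which replaces Psmb6, had 6.57, 5.88 and 6.66 FPKM in EXO, 6.3, 5.72 and 3.85 FPKM in BLM, and 4.83, 4.53 and 3.6 FPKM in NORMAL. Psmb9 and Tap1 overlap by 212 bases on opposite strands, Tap2 shares 3148 bases with the noncoding gene Gm15821 on the other strand (up to 8.65 FPKM), and the strand setting of the quantification is not given in the sources used here.

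A ratio of 2 genes within a library is free of the library total. Psmb8 over Psmb5 was 0.127, 0.325 and 0.23 in EXO, 0.114, 0.31 and 0.102 in BLM, and 0.0857, 0.151 and 0.159 in NORMAL. The mean log2 ratio differed by 0.47 between EXO and BLM (two-sided exact permutation test, n = 3 each, p = 0.5). It differed by 0.74 between EXO and NORMAL (exact p = 0.3) and by 0.27 between BLM and NORMAL (exact p = 0.8). All 3 differences changed in size with single libraries, and only the last changed sign. With 1 library left out, the difference between EXO and BLM ran from 0.16 (without EXO2) to 0.98 (without BLM2), with 0.17 without BLM3, 0.25 without BLM1 and 0.84 without EXO1. That between EXO and NORMAL ran from 0.43 without EXO2 to 1.10 without EXO1, with 0.45 without NORMAL1. That between BLM and NORMAL was -0.24 without BLM2, -0.02 without NORMAL1 and 0.39 to 0.56 without any other library. Psmb9 over Psmb6 was 0.0683, 0.109 and 0.106 in EXO, 0.0931, 0.139 and 0.0434 in BLM, and 0.0589, 0.0606 and 0.051 in NORMAL. All EXO values lay above all NORMAL values, with a difference of 0.70 (exact p = 0.1, the smallest that 3 against 3 allows). With 1 library left out this difference ran from 0.58 without EXO2 to 0.92 without EXO1. It was 0.16 between EXO and BLM (exact p = 0.8) and 0.54 between BLM and NORMAL (exact p = 0.4). The difference between EXO and BLM ran from -0.30 without BLM3 to 0.54 without BLM2, with 0.04 without EXO2, 0.06 without EXO3, 0.25 without BLM1 and 0.38 without EXO1, and that between BLM and NORMAL was 0.17 without BLM2 and 1.01 without BLM3. Adjusted over the 6 tests, the lowest p was 0.6 (Benjamini-Hochberg on exact p).

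**Figure D4:**
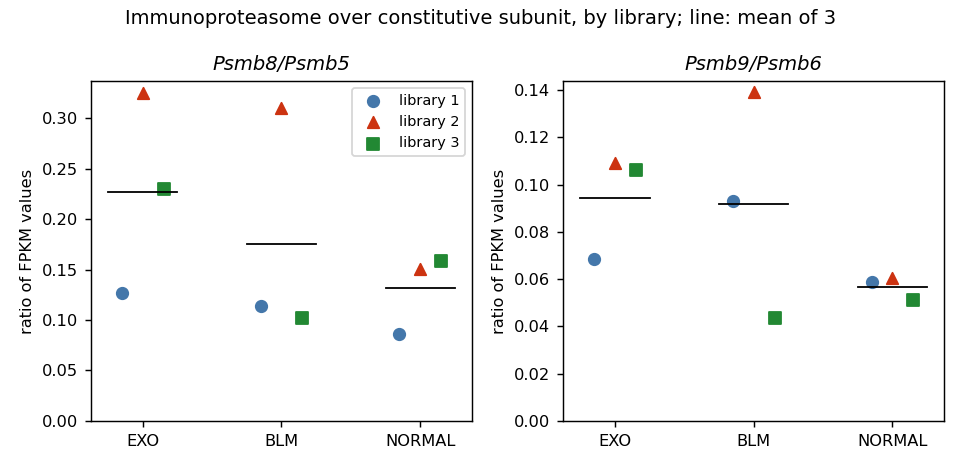
Points are the FPKM of an immunoproteasome subunit divided by that of the constitutive subunit it replaces, in single libraries of EXO, BLM and NORMAL, and the line is the mean of 3. The EXO values of Psmb9/Psmb6 all lie above the NORMAL values, while EXO and BLM overlap in both ratios.

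The genes that act with these 4 were mostly higher too. Of 15 genes of MHC class I and peptide loading, 14 were higher in EXO than in BLM (median log2 change 0.80) and 12 than in NORMAL (median 0.72), against 68.8% and 67% of all genes tested. At an unadjusted p below 0.05 there were 3 and 1 of the 15, against 6.84% and 2.33%, and 0 passed over all genes. Without the libraries numbered 2 the medians were 0.51 and 0.42. The counts were 12 to 15 of 15 against BLM and 10 to 13 of 15 against NORMAL over the 4 other scalings. B2m, the light chain of MHC class I, had 609.11, 1180.19 and 1150.92 FPKM in EXO, 467.26, 401.11 and 475.55 FPKM in BLM, and 415.37, 345.13 and 918.85 FPKM in NORMAL. H2-K1, a heavy chain from a family of near-identical genes whose levels are uncertain, had 108.55, 306.74 and 280.42 FPKM in EXO, 81.74, 45.53 and 133.69 FPKM in BLM, and 54.6, 32.1 and 120.1 FPKM in NORMAL.

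Markers of several cell types are given for the same comparisons. Of 12 macrophage markers, 5 were higher in EXO than in BLM (median log2 change -0.14) and 2 than in NORMAL (median -0.53), with 0 at an unadjusted p below 0.05. In BLM over NORMAL 0 of the 12 were higher (median -0.51), with 1 lower at that p. Of 8 keratinocyte markers, 6 were higher and 2 lower in EXO than in BLM (median log2 change 1.54, 1 at an unadjusted p below 0.05), and 7 were higher in EXO than in NORMAL (median 1.11, 0 at that p), with 0 passing over all genes. Without the libraries numbered 2 these medians were 0.88 and 0.48. Of the 8 markers, 7 were highest in the library numbered 3 of each group, against 32.4% of all genes tested. Of the 30 genes 3 were so (Trim25, Irf1 and Tap1), which is below that share. Hair follicle markers were lower in EXO than in BLM in 10 of 10 (median -3.79, all 10 at an unadjusted p below 0.05), with summed FPKM of 14.2, 4.62 and 7.72 in the EXO libraries, 732, 144 and 839 in the BLM libraries and 3.24, 2.28 and 231 in the NORMAL libraries. Melanocyte markers were lower in 4 of 4 (median -2.56, all 4 at that p), and cell cycle genes in 6 of 6 (median -1.74, 5 at that p). Skeletal muscle markers were lower in BLM than in NORMAL in 8 of 8 (median -2.0, 6 at that p). Their summed FPKM was 9312, 7067 and 5330 in the BLM libraries and 53043, 39628 and 7380 in the NORMAL libraries, with NORMAL3 below BLM1. In the EXO libraries the sum was 34539, 6806 and 10718. In BLM over NORMAL, hair follicle markers were higher in 10 of 10 (median 2.91, 7 at that p), melanocyte markers in 4 of 4 (median 2.91, all 4) and cell cycle genes in 6 of 6 (median 2.36, all 6). None of these markers passed over all genes. Of all genes tested, 68.8% were higher in EXO than in BLM, 67% in EXO than in NORMAL and 47.3% in BLM than in NORMAL. At an unadjusted p below 0.05 the shares were 6.84%, 2.33% and 7.37% in the same order. The part of these cells and of the hair follicle in the levels of the genes described here was not tested.

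The comparison of EXO with NORMAL asked how near treated skin stood to untreated skin. None of the 30 genes passed (limma), as none of the 14254 did (0%), and 0 had an unadjusted p below 0.05, against 2.33% of genes tested. Past the rule of the study there were 0 of 30, against 1.32% of genes tested in the higher and 0.393% in the lower direction. Their median log2 change was 0.15, against 0.17 for all genes tested, and 23 of 30 were higher in EXO, where 67% of genes tested were. This count was 16 of 30 with quantile normalization, 14 of 31 with median-ratio scaling and 14 of 30 without EXO2. The smallest p belonged to Rtp4, a chaperone of receptors, with 2.03, 3.58 and 1.17 FPKM in EXO, 1.62, 4.58 and 4.61 FPKM in BLM, and 5.7, 3.47 and 4.42 FPKM in NORMAL. Its groups overlapped, at a log2 change of -0.81 (SE 0.44, limma adjusted p = 0.997), and -1.23 without the libraries numbered 2. Tap1 and Tap2, above, came next. EXO lay above NORMAL with no overlap for 3 tested genes, Ifi35, Psmb8 and Psmb9 (background 4.58%), and below it for 0 (background 0.989%).

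BLM was set against NORMAL to see what bleomycin changed. None of the 30 genes passed (limma), where 0.014% of genes tested did, and 0 had an unadjusted p below 0.05, against 7.37%. Past the rule of the study there were 0, against 2.88% of genes tested in the higher and 3.02% in the lower direction. The median log2 change was 0.01, against -0.03 for all genes tested, with 15 of 30 higher, where 47.3% of genes tested were, and 8 of 31 with totals made equal. The smallest p were those of Irf1 (-0.66, SE 0.49, limma adjusted p = 0.856), Bst2 (0.77, SE 0.59, limma adjusted p = 0.865) and Irf7 (0.90, SE 0.70, limma adjusted p = 0.868). Single libraries decided these values. The log2 change of Irf1 was -0.26 without BLM2 and -0.24 without NORMAL3. That of Bst2 was 0.50 without BLM2 or without NORMAL3 and 1.22 without NORMAL2, and that of Irf7 was 0.49, 0.28 and 1.51 without the same libraries. No tested gene had groups without overlap, against 2.87% higher and 7.52% lower of all genes tested.

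Libraries with the same number deviated together, so values with the number as a block stand beside these. With the block, 0 of the 30 genes passed in any comparison, against 0.421% of genes tested for BLM over NORMAL, 0.0772% for EXO over BLM and 0.021% for EXO over NORMAL. At an unadjusted p below 0.05 there were 5 for EXO over BLM (Trim25, Irf1, Tap2 and Psmb8 higher and Irf7 lower), against 15.5% of genes tested, 2 for EXO over NORMAL (Tap1 and Tap2), against 7.6%, and 2 for BLM over NORMAL (Irf7 and Bst2, both higher), against 15.3%. Within same-numbered pairs, 10 of the 30 genes were higher in EXO than in BLM in 3 of 3 (28.2% of genes tested) and 3 were lower (Irf7, Dhx58 and Bst2, against 7.16%). Of the 30, 9 were higher in EXO than in NORMAL in 3 of 3 (27.7%) and 1, Oasl1, was lower (5.75%), while 5 were higher in BLM than in NORMAL (Irf7, Dhx58, Bst2, Xaf1 and Psmb9, against 16.6%) and 1, Ifi35, was lower (21.6%). The 3 comparisons share their libraries, so these counts do not stand apart from each other. The lowest adjusted p with the block was 0.193, for Trim25 in EXO over BLM.

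The other tested genes overlapped between the groups in every comparison. Among the transcription factors, Stat2, which joins IRF9 in the type I complex, ranged from 0.58 to 5.11 FPKM over the 9 libraries, and Irf9 from 3.79 to 9.71 FPKM. Among the sensors, Ddx58, the gene of RIG-I, ranged from 0.79 to 3.54 FPKM, Ifih1, the gene of MDA5, from 1.08 to 2.31 FPKM and Dhx58, their regulator LGP2, from 1.15 to 3.61 FPKM. Of the effectors, Usp18, which removes ISG15 from proteins, ranged from 2.57 to 6.39 FPKM, Ifit1 from 0.96 to 11.27 FPKM, Eif2ak2, the kinase PKR that stops translation, from 1.98 to 3.93 FPKM, Oasl2 from 2.94 to 7.49 FPKM and Ifit2, Oas2, Oasl1, Parp14 and Xaf1 from 0.49 to 4.86 FPKM. Most of these genes were near the low end, where an added pseudocount of 1 holds the log2 changes small.

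The genes below the filter stayed low in all groups. Mx2, listed as a polymorphic pseudogene in GENCODE, had 0.43, 0.48 and 0.82 FPKM in EXO, 0.79, 0.5 and 0.65 FPKM in BLM, and 0.3, 0.43 and 0.22 FPKM in NORMAL. Rsad2, which encodes the antiviral enzyme viperin, had 0.89, 0.93 and 0.51 FPKM in EXO, 0.67, 0.81 and 0.52 FPKM in BLM, and 0.18, 0.35 and 0.46 FPKM in NORMAL. For Mx2 the BLM libraries, and for Rsad2 the EXO and the BLM libraries, all lay above the NORMAL libraries, at levels below the filter of the main fit. Of genes tested, 2.87% lay higher in BLM and 4.58% higher in EXO than in NORMAL without overlap. With the filter dropped, 0 of the 35 passed in any comparison. Mx1 ranged from 0.36 to 1.68 FPKM, Ifi44 from 0.13 to 1.76 FPKM and Oas3 from 0.15 to 0.96 FPKM.

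**Figure D5:**
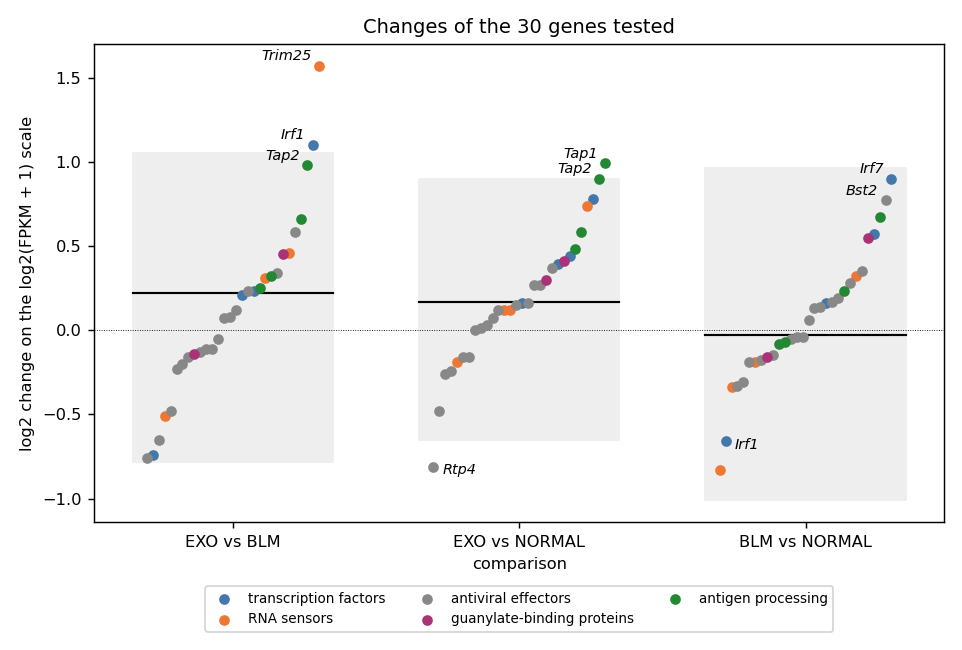
Each point is 1 of the 30 tested genes, ordered by its log2 change on the log2(FPKM + 1) scale and coloured by role. Grey boxes hold the range from the 5th to the 95th percentile of all genes tested and black lines their median, and most of the points lie inside the boxes in all 3 comparisons.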

How the data were processed

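Poly(A) RNA of 9 skin samples, 3 per group, was sequenced as strand-marked (dUTP) paired libraries. According to the submitters' processing notes, cutadapt, HISAT2 2.0.4 and StringTie 1.3.4d were used with mm9, and the authors deposited the levels as FPKM per gene. Coordinates are those of GENCODE M21 (GRCm38), which held 99.56% of the gene IDs, while the strand setting of the quantification is not given in the sources used here. The deposited FPKM values are not counts, so no interval for counting error is given, and all per-sample columns were matched to a library.

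Values were taken as log2(FPKM + 1), and genes with at least 1 FPKM in at least 3 libraries were tested with limma 3.58.1 (trend, R 4.3.3) on all 9 libraries together, with Benjamini-Hochberg adjustment over all 14254 genes and a threshold of 0.05. The fold changes understate changes of low genes. Ratios of 2 genes were compared by two-sided exact permutation tests (scipy 1.17.1). The fits were tested on simulated data, but the outcome is not given here, so it tells nothing of the fits on these libraries. The deviations of same-numbered libraries from their group means correlated at 0.1733 to 0.6786 (9 pairs), those of other pairs at -0.5468 to 0.2026 (18 pairs), so the numbers were taken to pair the libraries, from the data and from the titles. No 2 libraries were near identical (at most 1.05% of tested values equal exactly).

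The members and the gene lists were chosen with earlier results of these data known. Values in every library are given for genes among the 10 highest by mean, those at an unadjusted p below 0.05, those whose groups did not overlap and the 3 lowest p of each comparison. Promoters are from RefSeq (GRCm38.p6), matched by symbol for 27 of 35 genes. Alternatives were other scalings, pseudocounts, filters, the replicate block, subsets of libraries and each library left out.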

Additional observations from a re-analysis of the deposited data

How the results depend on the processing

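None of the 30 tested genes passed at an adjusted p below 0.05 in any comparison under any alternative that was run, and none of the named log2 changes changed side of the threshold. The depth of the libraries is not resolved, which limits what can be said of genes near 1 FPKM.

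The number of all genes called depended on the processing, and the cause was not tested. For EXO over BLM it was 2, against 1 with totals made equal, 36 with quantile normalization, 35 with median-ratio scaling, 97 with only the 6 libraries compared, 11 with the replicate block and 0 with 0.1 as the pseudocount, with the low-value filter dropped or raised to 5 FPKM, without the libraries numbered 2 (with or without the block) or without any 1 library. For EXO over NORMAL it was 0, against 1 with a pseudocount of 0.1 and 3 with the replicate block. For BLM over NORMAL it was 2, against 58 with quantile normalization, 74 with median-ratio scaling, 60 with the replicate block, and 0 with totals made equal, 0.1 as the pseudocount, the filter dropped or raised to 5 FPKM, the 6 libraries compared or without the libraries numbered 2. Leaving out 1 library gave 0 to 131, with 131 without NORMAL3 and 6 without BLM2.

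The count of members past the rule of the study in EXO over BLM was 2, against 1 with totals made equal, with totals without mitochondrial, ribosomal and muscle transcripts, with the pseudocount of 0.1, with the filter at 5 FPKM and with the block without the libraries numbered 2, and 0 with quantile normalization, median-ratio scaling, no filter or without the libraries numbered 2 (0 to 2 with 1 library left out). In EXO over NORMAL it was 0, against 1 without the libraries numbered 2 and 2 with the block as well (0 to 2 with 1 library left out), and in BLM over NORMAL 0, against 2 with that block and subset (0 to 1). The combination of block and subset was chosen after seeing the data.

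The median log2 change of the members took the other sign in EXO over BLM at -0.10 with quantile normalization and -0.17 with median-ratio scaling (-0.07 to 0.31 with 1 library left out), in EXO over NORMAL at -0.07 with median-ratio scaling (-0.01 to 0.31), and in BLM over NORMAL at -0.17 with totals made equal and -0.06 with totals without mitochondrial, ribosomal and muscle transcripts (-0.17 to 0.18). The log2 ratio of Psmb8 to Psmb5 in BLM over NORMAL was -0.12 without the libraries numbered 2 (-0.24 to 0.56 with 1 library left out), and that of Psmb9 to Psmb6 in EXO over BLM ran from -0.30 to 0.54. The count of genes highest in the libraries numbered 2 was 10 with totals made equal, against 17.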

Other observations

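The receptors and kinases through which interferons signal, listed with their inhibitors Socs1 and Socs3, were mostly higher in EXO, at 9 of 11 over BLM (median log2 change 0.39) and 10 of 11 over NORMAL (median 0.26), and 5 of 11 were higher in BLM than in NORMAL (median -0.12), with 0 passing in any comparison. Of all genes tested, 68.8% were higher in EXO than in BLM and 67% than in NORMAL, with medians of 0.22 and 0.17. The counts were 7 of 11 (median 0.13) and 8 of 11 (median 0.03) with median-ratio scaling, and 7 of 11 over both without the libraries numbered 2. Ifngr1, a chain of the interferon gamma receptor, had 3.17, 27.01 and 31.85 FPKM in EXO, 0.84, 0.76 and 14.37 FPKM in BLM, and 4.2, 1.2 and 18.43 FPKM in NORMAL. Its levels spread widely within each group. Jak1, the kinase that serves both kinds of receptor, had 10.45, 16.05 and 15.75 FPKM in EXO, 7.78, 7.18 and 9.63 FPKM in BLM, and 17.85, 19.18 and 16.45 FPKM in NORMAL, with BLM below both other groups. Of all genes tested, 11.4% lay higher in EXO than in BLM without overlap and 7.52% lower in BLM than in NORMAL.

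Zbp1, a sensor of Z-form nucleic acid, was the gene among 8 tested of nucleic acid sensing that was highest in the libraries numbered 2. Of all genes tested 5.18% were. Zbp1 had 2.23, 10.84 and 2.62 FPKM in EXO, 3.63, 8.69 and 2.42 FPKM in BLM, and 6.08, 11.16 and 3.31 FPKM in NORMAL. Of the 18 constitutive proteasome genes, 15 were higher in EXO than in BLM (median log2 change 0.23), 1 was higher in EXO than in NORMAL (median -0.13) and 1 was higher in BLM than in NORMAL (median -0.32). Over all genes tested the medians were 0.22, 0.17 and -0.03 in the same order, and the comparisons share libraries. These counts turned with the processing, with 4 of 18 higher in EXO than in BLM under quantile normalization (median -0.14) and 7 of 18 under median-ratio scaling, 11 of 18 higher in EXO than in NORMAL without the libraries numbered 2, and 11 of 18 higher in BLM than in NORMAL under quantile normalization and 10 of 18 without the libraries numbered 2.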
